A study of Mus musculus with 6 samples.

Results

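The SLAM and CD2 family and its adaptors were examined in mouse regulatory T (Treg) cells as 9 genes chosen by name from 35275 gene identifiers: the SLAM receptors Slamf1, Ly9, Cd84, Slamf6 and Slamf7, the receptor Cd2 and its ligand Cd48, and the SH2 adaptors Sh2d1a and Sh2d2a. Sh2d1a encodes SAP itself. Sh2d2a encodes the T cell-specific adaptor TSAd, which has an SH2 domain but is not a SAP-family protein. The control group held 3 libraries of Treg cells from Foxp3YFPcre mice, titled WT, and the deletion group 3 libraries from Rcor1fl/flFoxp3YFPcre mice, in which Cre driven by Foxp3 deletes Rcor1, the gene of the corepressor scaffold CoREST1. Both groups thus carried the Foxp3 allele with YFP and Cre. All mice were males aged 6 to 8 weeks, and CD4+ cells enriched on a column were sorted by YFP. Each group had 3 biological replicates, and the labels name no batch, litter or day of sorting. The comparison asks what losing Rcor1 in Foxp3+ cells does to the RNA levels of Treg cells.

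SLAM receptors are immunoglobulin-like surface proteins of blood cells, and most of them bind the same receptor on a neighbouring cell. Their cytoplasmic tails carry tyrosine motifs to which SAP binds, and SAP in turn brings in the kinase Fyn. In T cells the SLAM and SAP pathway is known for the contact of follicular helper T cells with B cells and for the development of NKT cells. CD2 is an adhesion and costimulatory receptor of T cells, and in the mouse its ligand is CD48.

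The authors deposited FPKM, which is fragments divided by gene length and by the library total. Library totals recovered from these values were 18538581 to 22349455 fragments. Foxp3, which defines Treg cells, lay between 88.0 and 106 FPKM over the 6 libraries, and Cd4 and Cd3e were present in each. Rcor1 was at 16.1, 16.1 and 15.2 FPKM in control and 12.5, 13 and 14.2 FPKM in deletion libraries (log2 fold change -0.24, SE 0.066, limma adjusted p = 0.0562). It was lower in each deletion library but did not pass the threshold. A value per gene can include fragments from exons that stay after deletion, and the labels do not say which exons are floxed. The value thus does not by itself show how far Rcor1 was deleted, and this was not tested. Of 11575 genes tested, 12.0% passed the threshold (adjusted p under 0.05), with 8.95% that rose and 3.08% that fell in deletion. The median log2 fold change over all tested genes was 0.08, and -0.01 with median-ratio scaling, so small rises shrink and small falls grow under that scaling. In bulk RNA, a changed share of cells of a type and a changed amount of RNA per cell cannot be told apart.

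Of the 9 genes, 3 rose in deletion (Slamf6, Cd84 and Sh2d1a), 1 fell (Cd2) and 5 did not pass the threshold (Slamf1, Ly9, Slamf7, Cd48 and Sh2d2a). The changes were modest, with means 29.2% higher for Slamf6, 21.3% for Cd84 and 21.7% for Sh2d1a, while that of Cd2 changed by -17.0%. All 9 genes had passed the filter on low values, with 6.48 FPKM or more in each library. The groups did not overlap in 7 of the 9 genes, against 39.1% of all tested genes, and overlapped for Cd48 and Sh2d2a. Without overlap, 6 of the 9 genes were higher and 1 was lower, against 29.3% and 9.79% of all tested genes. The 9 genes were chosen with earlier results of these data known, so these counts are a description and not a test. The share of all tested genes that passed also moved with the analysis. It was 12.0% and 12.1% with pseudocounts of 0.1 and 5, 13.6% with a filter at 5 FPKM and 11.6% without a trend in the variance. Without control libraries 1, 2 and 3 it was 3.88%, 16.8% and 5.54%, and without deletion libraries 1, 2 and 3 it was 4.81%, 3.53% and 2.9%. With median-ratio scaling, 1 of the 9 genes rose (Slamf6) and 1 fell (Cd2), against 4.56% and 5.94% of all tested genes. The same 2 genes passed with quantile normalization (4.09% of all genes rose and 3.41% fell) and with voom on recovered fragments, which also used median-ratio scaling (6.09% rose and 6.31% fell). Slamf6 alone passed without a filter (2.58% rose and 1.27% fell) and with the replicate number as a block (2.32% rose and 1.17% fell). Slamf6 passed in 13 of 15 alternative analyses, Cd2 in 9, Cd84 in 5 and Sh2d1a in 3, and each kept its direction in all 15.

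**Figure D1:**
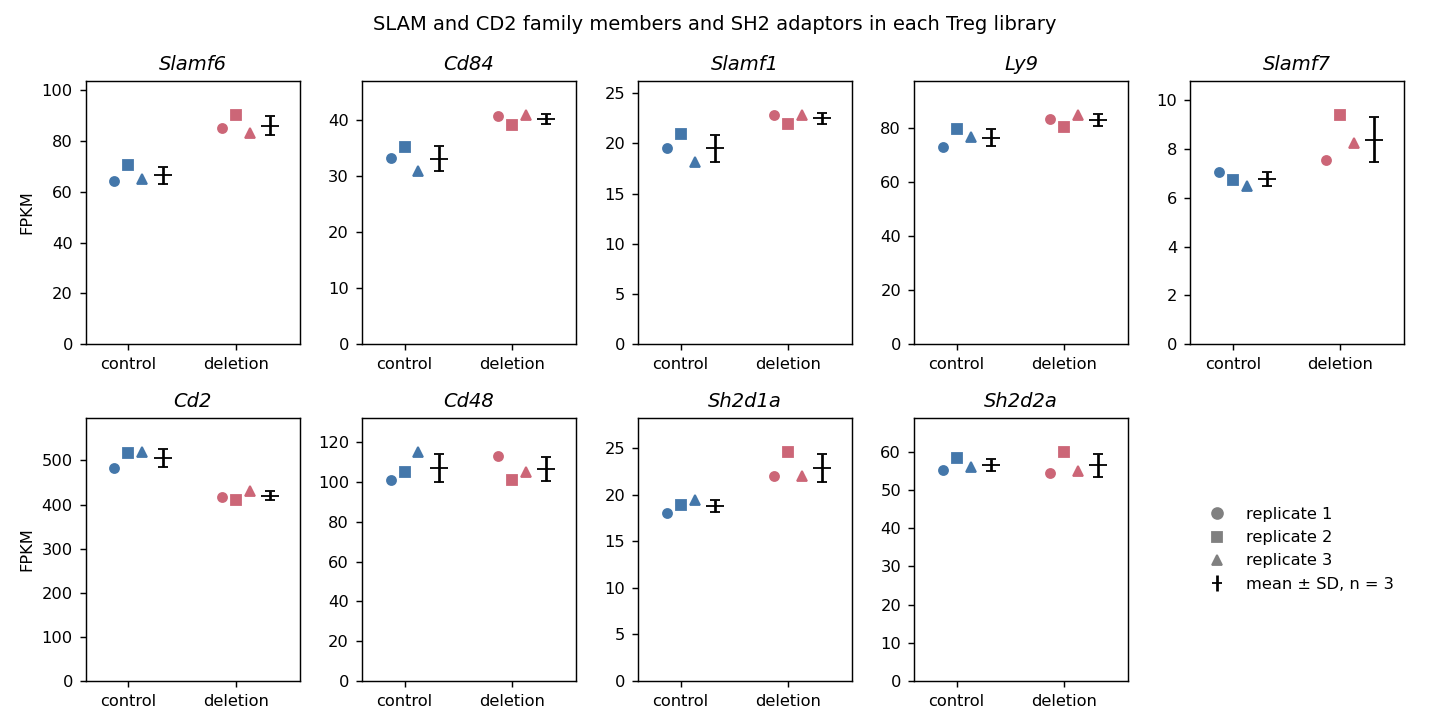
FPKM (vertical axes, from 0) of each gene in the 3 control and 3 deletion libraries, with symbols for replicates and black bars for mean ± SD. Every deletion library lies above every control library for the 5 SLAM receptors and Sh2d1a and below for Cd2, while Cd48 and Sh2d2a overlap. Of all tested genes, 29.3% lie above and 9.79% below in this way.

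The stretches of 250 bases before the RefSeq start (GRCm38.p6, plus strand) are shown for the SLAM receptors that rose, Slamf6 and Cd84, and for Slamf1, which lies next to Cd84 and did not pass. Of the 9 genes, Slamf1, Cd84, Slamf6, Slamf7 and Cd48 were matched in the RefSeq promoter table, and Ly9, Cd2, Sh2d1a and Sh2d2a were not. Capitals mark a match on either strand to AAATCA, a part of the motif of Gfi1 (a repressor that works through CoREST), to CTTTGA (TCF/LEF factors) or to TGTGGT (RUNX factors).
Slamf6 (chr1:171917212-171917461): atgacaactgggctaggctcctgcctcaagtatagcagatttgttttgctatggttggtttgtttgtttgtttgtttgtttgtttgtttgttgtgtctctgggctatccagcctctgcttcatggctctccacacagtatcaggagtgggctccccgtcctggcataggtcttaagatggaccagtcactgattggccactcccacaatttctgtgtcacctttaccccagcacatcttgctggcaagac
Cd84 (chr1:171839447-171839696): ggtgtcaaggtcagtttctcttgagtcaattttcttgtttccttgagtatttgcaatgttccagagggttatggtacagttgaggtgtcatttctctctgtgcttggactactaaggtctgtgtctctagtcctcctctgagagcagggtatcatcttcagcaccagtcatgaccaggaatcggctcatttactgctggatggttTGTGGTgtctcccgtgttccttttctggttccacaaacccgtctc
Slamf1 (chr1:171766882-171767131): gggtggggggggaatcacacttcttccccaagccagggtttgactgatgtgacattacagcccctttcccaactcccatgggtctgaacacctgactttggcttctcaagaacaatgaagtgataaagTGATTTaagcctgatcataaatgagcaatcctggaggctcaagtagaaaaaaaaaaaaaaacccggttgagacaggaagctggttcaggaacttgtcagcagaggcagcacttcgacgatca
None of these letters occurred in the window of Slamf6. The window of Cd84 held TGTGGT 45 bases before the start, and that of Slamf1 held AAATCA on the minus strand, read as TGATTT on the printed strand, 122 bases before it. The Cd48 window, not shown, held TGTGGT and CTTTGA, and the Slamf7 window held none of them. Over all 32851 windows of this length in the table, 12.4% held AAATCA, 13.8% CTTTGA and 14.0% TGTGGT on either strand.

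Levels of the 9 genes in Treg cells spanned a wide range. Cd2 was the most abundant, with a control mean of 506.2 FPKM, above 99.0% of tested genes by control mean. It was followed by Cd48 (107.1 FPKM), Ly9 (76.3 FPKM), Slamf6 (66.7 FPKM), Sh2d2a (56.5 FPKM), Cd84 (33.2 FPKM), Slamf1 (19.5 FPKM), Sh2d1a (18.8 FPKM) and Slamf7 (6.75 FPKM). In control libraries neighbours in this order did not overlap, except Slamf1 and Sh2d1a. In deletion libraries Slamf6 (83.2 to 90.2 FPKM) reached the range of Ly9 (80.3 to 84.6 FPKM), and Slamf1 and Sh2d1a again overlapped. FPKM depends on the length assigned to a gene. The length behind the values was 1082 bases for Slamf7, 2443 bases for Slamf6 and 2693 bases for Slamf1, where the longest annotated transcripts have 3975, 5729 and 4420 bases. For Sh2d2a it was 4758 bases against 4484, and for Cd48 1179 against 1186. Levels of these genes relative to others are thus less certain than their changes between libraries.

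Slamf6 (ENSMUSG00000015314, chromosome 1, 171917515 to 171953170, plus strand, GRCm38) encodes Ly108, a self-binding SLAM receptor of T, B and NK cells. It stood at 64.2, 70.5 and 65.3 FPKM in control libraries 1, 2 and 3 and at 85.1, 90.2 and 83.2 FPKM in deletion libraries 1, 2 and 3. The lowest deletion library was above the highest control library, as in 29.3% of all tested genes. Group means were 66.7 ± 3.35 and 86.1 ± 3.62 FPKM (SD, n = 3), so that Slamf6 rose by a log2 fold change of 0.37 (SE 0.058, limma adjusted p = 0.0135). The rise passed with median-ratio scaling (0.27 in log2, adjusted p = 0.0274), with quantile normalization (0.37, adjusted p = 0.0113) and with voom on recovered fragments with median-ratio scaling (0.28, adjusted p = 0.0212). The threshold was missed when control library 1 was left out (adjusted p = 0.0539) and when deletion library 2 was (adjusted p = 0.0563), and over all 15 alternatives the adjusted p ran from 0.00956 to 0.0563. A value per gene adds up the splice forms of Ly108, which are therefore not told apart here.

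Cd84 (ENSMUSG00000038147, chromosome 1, 171839697 to 171890718, plus strand), a self-binding receptor also found on B cells, myeloid cells and platelets, was at 33.3, 35.3 and 30.9 FPKM in control and at 40.7, 39.2 and 40.9 FPKM in deletion libraries. Its deletion libraries were also all above its control libraries, as in 29.3% of all tested genes. With group means of 33.2 ± 2.19 and 40.3 ± 0.921 FPKM, Cd84 rose by a log2 fold change of 0.27 (SE 0.062, adjusted p = 0.0361, and 0.021 to 0.123 over the alternatives). With median-ratio scaling the log2 fold change was 0.18 (adjusted p = 0.105), and with quantile normalization 0.23 (adjusted p = 0.0669). With 1 library left out, the call held without control library 2 (adjusted p = 0.021) and was lost in the other 5 cases, at adjusted p-values of 0.0746 (without control library 3) to 0.123 (without deletion library 3).

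Every deletion library was above every control library for the other SLAM receptors, as in 29.3% of all tested genes on the deposited scale. These receptors did not pass the threshold, and their differences were smaller with median-ratio scaling. Slamf1 (SLAM, CD150), the founding receptor of the family, was at 19.5, 20.9 and 18.2 FPKM in control and 22.8, 21.9 and 22.8 FPKM in deletion libraries (log2 fold change 0.20, 95% interval 0.05 to 0.35, adjusted p = 0.0859). Slamf1 passed without control library 2 (adjusted p = 0.0435) and in no other alternative (up to 0.302), and its log2 fold change was 0.11 with median-ratio scaling. Ly9 (CD229), a self-binding receptor, was at 73.0, 79.4 and 76.5 FPKM in control and 83.3, 80.3 and 84.6 FPKM in deletion libraries (log2 fold change 0.12, 95% interval -0.01 to 0.24, adjusted p = 0.175). With median-ratio scaling the difference of Ly9 was 0.02 in log2 in limma (adjusted p = 0.816, the highest of the alternatives, from 0.107) and 0.03 in voom. Ly9 lies within the span of Cd244a on the opposite strand, and no strand setting is given in the sources used here, so shared fragments are possible, although Cd244a itself held 0.5 to 1.12 FPKM. Slamf7 (CRACC), a receptor best known from NK and plasma cells, had the fewest fragments, 130 to 206 per library. It was at 7.04, 6.74 and 6.48 FPKM in control and 7.53, 9.37 and 8.22 FPKM in deletion libraries (log2 fold change 0.27, 95% interval 0.06 to 0.48, adjusted p = 0.0845). The difference of Slamf7 was 0.15 in log2 with quantile normalization, and median-ratio scaling gave 0.19. Deletion library 2 stood highest for Slamf7 and deletion library 1 lay close to the control range.

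Together the 5 SLAM receptors summed to 197, 213 and 197 FPKM in control and to 239, 241 and 240 FPKM in deletion libraries. Slamf6 made up 32.6%, 33.1% and 33.1% of that sum in control and 35.5%, 37.4% and 34.7% in deletion libraries. Ly9 made up 37.0%, 37.3% and 38.8% in control and 34.8%, 33.3% and 35.3% in deletion libraries. The leading receptor by share was thus Ly9 in each control library and Slamf6 in deletion libraries 1 and 2, with 34.7% for Slamf6 and 35.3% for Ly9 in deletion library 3. These shares are within a library and do not depend on scaling between libraries. The shares do depend on the length assigned to each gene, 2443 bases for Slamf6 and 2488 for Ly9. The longest annotated transcripts have 5729 and 2488 bases, so which receptor leads is uncertain. The shares were chosen after the values were seen and carry no test.

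Cd2 (ENSMUSG00000027863, chromosome 3, 101275899 to 101287939, minus strand) moved the other way. Its levels were 483, 516 and 519 FPKM in control and 418, 411 and 431 FPKM in deletion libraries 1, 2 and 3. Each deletion library was below each control library, as in 9.79% of all tested genes. Group means were 506.2 ± 19.98 and 420.2 ± 10.1 FPKM, and Cd2 fell with a log2 fold change of -0.27 (SE 0.051, adjusted p = 0.0219, and 0.0077 to 0.0844 over the alternatives). The fall passed with median-ratio scaling (-0.36 in log2, adjusted p = 0.00939), quantile normalization (-0.21, adjusted p = 0.0472) and voom with median-ratio scaling (-0.35, adjusted p = 0.0077). It passed without control library 1 (adjusted p = 0.0429) or 2 (adjusted p = 0.0312). The fall no longer passed when control library 3 was left out (adjusted p = 0.0611) or without deletion library 1, 2 or 3 (adjusted p = 0.0725, 0.0844 and 0.0755). Of 9 Treg and T cell marker genes, Cd3g, a chain of the T cell receptor complex, also fell, with 528.2 ± 8.91 FPKM in control and 465.2 ± 7.74 FPKM in deletion (adjusted p = 0.0421). Ikzf2 (Helios) rose, with 47.5 ± 5.93 FPKM in control and 62.5 ± 3.88 FPKM in deletion (adjusted p = 0.0463). The Cd3g call was lost whichever library was left out (adjusted p = 0.0549 without control library 2 to 0.141 without deletion library 3), and with quantile normalization the Cd3g value was -0.11 in log2 (0.252). It was also lost without a filter on low values (0.0943) and without a variance trend (0.0739). The Cd3g call held with median-ratio scaling, both in limma (-0.28 in log2, adjusted p = 0.0163) and in voom (-0.27, adjusted p = 0.0142). The Ikzf2 call held without control library 2 (0.0403) and was lost in the other 5 cases (0.0637 without control library 3 to 0.146 without deletion library 3), and it was also lost with median-ratio scaling (0.0897) and quantile normalization (0.0781). Trac, Cd3e and Cd4 did not pass, with control means of 698.2, 303.2 and 235.2 FPKM and deletion means of 730.6, 270.1 and 236.1 FPKM.

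Cd48 (chromosome 1, 171682009 to 171705258, plus strand), a lipid-anchored ligand of CD2 and of CD244, was at 101, 105 and 115 FPKM in control and at 113, 101 and 105 FPKM in deletion libraries. The groups overlapped throughout. The log2 fold change was -0.01 (95% interval -0.17 to 0.15, adjusted p = 0.926). The ratio of Cd2 to Cd48 levels, which does not depend on library scaling, was 4.77, 4.92 and 4.52 in control and 3.70, 4.07 and 4.12 in deletion libraries.

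Among the adaptors, SAP and TSAd differed in what was seen. Sh2d1a (ENSMUSG00000005696, chromosome X, 42502453 to 42529330, plus strand), the SAP gene, was at 18.1, 18.9 and 19.4 FPKM in control and at 22.0, 24.6 and 22.0 FPKM in deletion libraries. Each deletion library was above each control library, as in 29.3% of all tested genes, with deletion library 2 the highest. Group means were 18.8 ± 0.627 and 22.9 ± 1.48 FPKM, and Sh2d1a rose by a log2 fold change of 0.27 (SE 0.064, adjusted p = 0.0414, and 0.0359 to 0.122 over the alternatives). This call was close to the threshold and was lost whichever library was left out, at adjusted p-values of 0.0557 (without control library 2) to 0.122 (without deletion library 2). It was also lost with median-ratio scaling, both in limma (0.18 in log2, adjusted p = 0.106) and in voom (0.20, adjusted p = 0.0969), and with quantile normalization (0.18, adjusted p = 0.114). Sh2d2a (chromosome 3, 87846755 to 87855722, plus strand), whose product TSAd binds the kinase Lck, was at 55.2, 58.4 and 55.9 FPKM in control and at 54.3, 59.9 and 55.0 FPKM in deletion libraries (95% interval of the log2 fold change -0.14 to 0.13, adjusted p = 0.985). The ratio of Sh2d1a to Sh2d2a levels was 0.329, 0.323 and 0.347 in control and 0.406, 0.410 and 0.400 in deletion libraries. That the changes of these 2 adaptors differ was not tested.

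**Figure D2:**
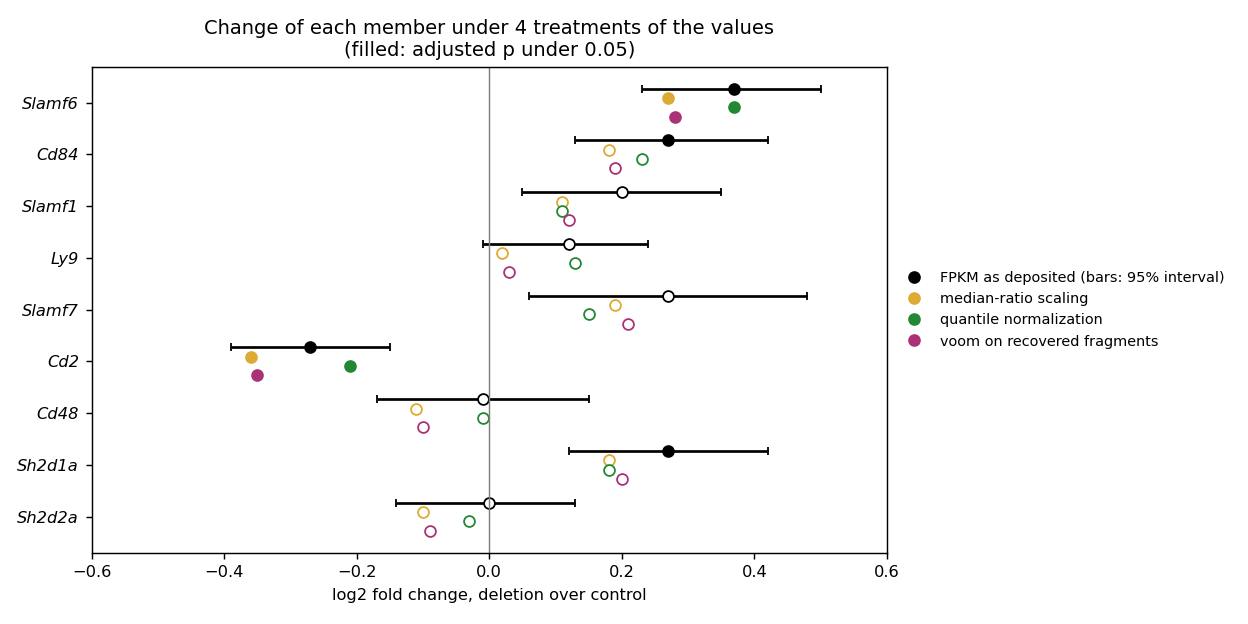
Log2 fold change of deletion over control (horizontal axis) for each gene with FPKM as deposited, with its 95% interval, and under 3 other treatments of the values (voom also used median-ratio scaling), where filled symbols mark an adjusted p under 0.05. Slamf6 and Cd2 passed under all 4 treatments shown, with 0.27 to 0.37 for Slamf6 and -0.36 to -0.21 for Cd2, and Cd84 and Sh2d1a passed with the deposited scale alone.

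Within each library the rising genes can be set against Cd2 without any scaling between libraries. Slamf6 per Cd2, a ratio of FPKM levels, was 0.133, 0.137 and 0.126 in control and 0.204, 0.219 and 0.193 in deletion libraries. Cd84 per Cd2 was 0.0690, 0.0684 and 0.0596 in control and 0.0973, 0.0954 and 0.0949 in deletion libraries. Sh2d1a per Cd2 was 0.0375, 0.0366 and 0.0373 in control and 0.0527, 0.0598 and 0.0510 in deletion libraries. All 3 ratios were higher in every deletion library, a description of genes chosen for their calls and not a test.

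Of the 9 genes, 6 lie in 1 cluster on chromosome 1, with Cd244a at one end and Slamf6 at the other, 394 kb apart from outer end to outer end. Of the 9 genes of the table in this span, 8 were tested, of which Cd84 and Slamf6 rose and the processed pseudogene Tma7-ps, between Cd48 and Slamf1, fell. Over all tested genes, 8.95% rose and 3.08% fell. Tma7-ps was at 8.54 ± 0.761 FPKM in control and 3.67 ± 0.119 FPKM in deletion libraries, a log2 fold change of -1.03 (adjusted p = 0.00126). Fragments of Tma7-ps can be shared with its parent gene, so its value is uncertain. Gm10521, a predicted gene between Cd84 and Slamf6, was at 4.74 ± 0.703 and 6.07 ± 0.563 FPKM (log2 fold change 0.30, adjusted p = 0.112). Cd84 and Slamf6 lie at the Slamf6 end of the span, with Gm10521 between them. Slamf7, toward the Cd244a end, had the same log2 fold change as Cd84, 0.27, and did not pass (limma adjusted p = 0.0845). The Cd84 call was itself lost with median-ratio scaling (limma adjusted p = 0.105). Cd48, between Slamf7 and Slamf1, had a log2 fold change of -0.01. Whether the changes depend on position in the span was not tested.

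**Figure D3:**
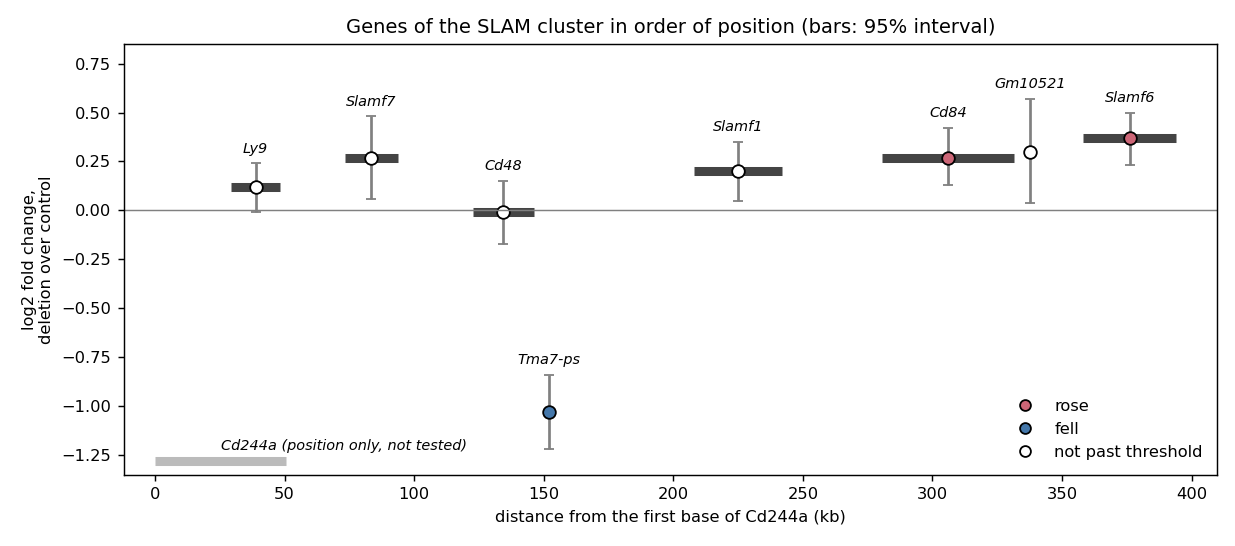
Log2 fold change of deletion over control (vertical axis) for the genes of the SLAM cluster against distance from the first base of Cd244a in kb, with thick lines for gene spans and thin bars for 95% intervals, and a grey bar at the bottom that gives the position of Cd244a and no fold change. Values run from 0.12 (Ly9) to 0.37 (Slamf6) for the SLAM receptors, with Cd48 at -0.01 and Tma7-ps at -1.03.

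Further members of the family were barely present. Cd244a, the other receptor for CD48, was at 0.81 ± 0.273 and 0.818 ± 0.289 FPKM, and Slamf8, Slamf9 and Sh2d1b2, an EAT-2 adaptor of NK and myeloid cells, had means of 0.159 to 0.442 FPKM, so 0 of these 4 genes entered the test. Of 13 kinases, phosphatases and adaptors downstream of SLAM receptors, 0 passed limma's test, 2 had an unadjusted p under 0.05, 0 passed with voom, and their median log2 fold change was 0.05, against 0.08 over all tested genes. Fyn, which SAP recruits, was at 140, 149 and 137 FPKM in control and 151, 156 and 161 FPKM in deletion libraries (log2 fold change 0.13, adjusted p = 0.135). Inpp5d, the lipid phosphatase SHIP-1, was at 38.6 ± 1.01 and 42.3 ± 0.995 FPKM (adjusted p = 0.122), and Lck at 432.0 ± 16.8 and 445.9 ± 12.4 FPKM (adjusted p = 0.561).

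Of 6 cytoplasmic partners of CD2, 1 rose and 0 fell. Cd2ap, an adaptor that binds the tail of CD2 and links it to the cytoskeleton, was at 15.6, 15.6 and 14.0 FPKM in control and 20.3, 17.9 and 20.6 FPKM in deletion libraries. Cd2ap rose by a log2 fold change of 0.36 (SE 0.076, adjusted p = 0.0297). This call did not hold when control library 1 or 3 was left out (adjusted p = 0.0747 and 0.0757) and without deletion library 1 or 3 (0.0927 and 0.108). It was also lost in limma with median-ratio scaling (0.0747), quantile normalization (0.0739), no filter on low values (0.0561) and the replicate block (0.093). In voom, which also used median-ratio scaling, Cd2ap passed (0.29 in log2, adjusted p = 0.0449). Was and Pstpip1, which act on actin downstream of CD2, were at 117.0 ± 1.75 and 115.2 ± 0.343 FPKM and at 57.9 ± 2.52 and 61.5 ± 0.934 FPKM. Of 6 partners of TSAd, among them Lat, Lcp2 and Grb2, 0 passed by either limma or voom, and an unadjusted p under 0.05 was seen for 0.

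Several SLAM receptors are shared with B cells and other blood cells, and the levels of markers of such cells are given here beside them. Of 10 B cell markers, 6 were tested and 1 rose, Cd22, a B cell receptor inhibitor, at 2.04 ± 0.542 FPKM in control and 5.17 ± 0.231 FPKM in deletion (adjusted p = 0.00793, and 0.0117 to 0.0424 with 1 library left out). Their summed level was 29.3, 39.5 and 48.8 FPKM in control and 60.3, 52.3 and 49.7 FPKM in deletion libraries, higher in each deletion library. Of the 10, 0 were at 0 in all libraries. Of the 6 tested, 3 were higher without overlap and 0 lower, against 29.3% and 9.79% of all tested genes. Cd79b overlapped, with means of 13.9 and 15.84 FPKM. Pax5 (1.058 and 1.095 FPKM) and Fcer2a (0.464 and 0.2 FPKM), both not tested, also overlapped. Of 5 plasma cell markers, 0 passed by either limma or voom, 4 reached an unadjusted p under 0.05, and 4 passed without control library 2. Their sum, mostly Jchain, was 154, 441 and 170 FPKM in control and 433, 479 and 532 FPKM in deletion libraries, so control library 2 overlapped with deletion. Of the immediate early genes, which are induced within minutes of a stimulus, 5 of 9 tested rose (Fos, Fosb, Jun, Jund and Nr4a1), against 8.95% of all tested genes. With 1 library left out, 2 (without deletion library 3) to 6 (without control library 2) of these genes rose. Their sums were 1450, 1977 and 1492 FPKM in control and 2324, 2300 and 2504 FPKM in deletion libraries. Lens transcripts (Cryaa, Cryab, Crybb2 and Cryba1) and fat transcripts (Fabp4, Cfd, Car3 and Adipoq) all fell, and together summed to 135 to 210 FPKM in control and to 0.796 to 1.76 FPKM in deletion libraries. The part of these marker genes in the changes of the SLAM and CD2 family was not tested.

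In the other marker lists no gene passed the threshold in the main test. Of 7 markers of follicular helper T cells, the cells in which SLAM receptors and SAP are best known, 6 were tested and 0 passed with limma or voom, while 2 (Bcl6 and Maf) had an unadjusted p under 0.05 and 1 rose without control library 2. Bcl6, their lineage factor, was at 6.42 ± 1.30 and 9.11 ± 0.720 FPKM (adjusted p = 0.0611), and Maf, a factor of several helper T cell types, was at 24.8 ± 1.89 and 32.9 ± 6.43 FPKM (adjusted p = 0.101). Bcl6 and Maf were higher without overlap, as were 29.3% of all tested genes, whereas Pdcd1, Icos, Cxcr5 and Il21 overlapped between groups. The mean of Il21 was lower in deletion, at 1.84 ± 0.488 and 1.43 ± 0.299 FPKM (limma adjusted p = 0.376). Ascl2, the gene not tested, was lower in each deletion library, with means of 0.234 FPKM in control and 0.0796 FPKM in deletion. Of CD8 T, NK and NKT cell markers 0 of 6 tested passed by either limma or voom, an unadjusted p under 0.05 was seen for 0, and their sums overlapped, with 32.2 to 38.8 FPKM in control and at most 35.2 FPKM in deletion libraries. Of myeloid and platelet markers 0 of 5 tested passed by either limma or voom, and an unadjusted p under 0.05 was seen for 0. Their sums of 7.78 to 43.4 FPKM in control and 4.59 to 75.3 FPKM in deletion libraries overlapped. Without a filter on low values, 1 gene of this list fell. Pf4, below the filter, was at 0.166, 0.429 and 0.368 FPKM in control and at 0 in each deletion library.

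**Figure D4:**
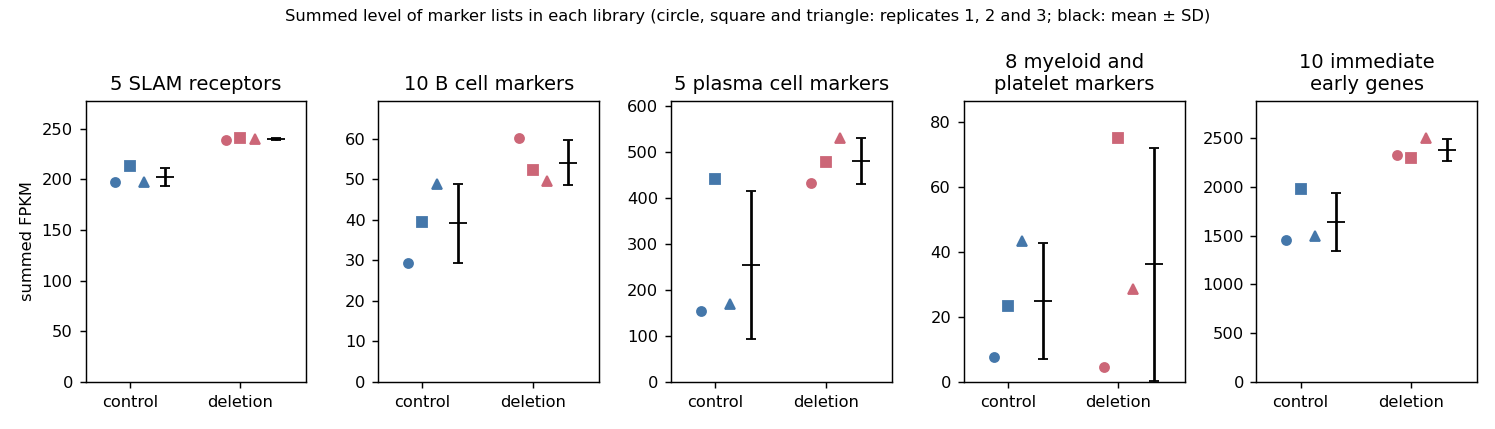
Summed FPKM (vertical axes, from 0) of the 5 SLAM receptors and of 4 marker lists in each library, with black bars for mean ± SD over 3 libraries. The SLAM receptors, B cell markers and immediate early genes are higher in each deletion library than in each control library, whereas plasma cell and myeloid markers overlap.

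The genes whose pattern over the 6 libraries came closest to each changed gene were found by the root mean square distance between centred log2(FPKM + 1) values, among 10103 other protein-coding genes. For Slamf6 they were Kctd11 (distance 0.021), C2cd2l (0.023) and Tec (0.029), where the median gene was at 0.18. C2cd2l rose, with means of 5.18 and 7.01 FPKM (adjusted p = 0.0187), as did the kinase gene Tec, with 4.41 and 6.20 FPKM (adjusted p = 0.0219), while Kctd11 was at 0.704 and 1.18 FPKM (adjusted p = 0.0698). For Cd84 they were Mlxip (0.018), Klhl20 (0.019) and Cdk17 (0.021), for Sh2d1a Nqo2 (0.024), Shkbp1 (0.027) and Capg (0.027), and for Cd2 Aimp2 (0.016), Maf1 (0.023) and Fam104a (0.027). Maf1, a repressor of RNA polymerase III, fell, with means of 120 FPKM in control and 101 FPKM in deletion (adjusted p = 0.0215). Capg, an actin-capping protein gene, rose, with means of 218 and 268 FPKM (adjusted p = 0.0305). Cdk17 and Nqo2, like Kctd11, did not pass (limma adjusted p = 0.0598 and 0.0754). All these genes were picked as the closest of many over 6 libraries. Their directions therefore follow from the choice and are no separate result, and the distances say nothing of shared control.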

How the data were processed

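Messenger RNA of sorted Treg cells was sequenced in 6 libraries, 3 per group. The authors deposited FPKM values for 35275 identifiers, with 1 column per library. STAR and mm10 are named in the submitters' processing notes, while how fragments were counted, with which annotation and filters, is not given there. Each column carries the description of 1 sample and was assigned by it, and no column stayed without a sample. Gene symbols, positions and lengths came from GENCODE M21 on GRCm38 (34490 identifiers matched), and sequences from RefSeq (GRCm38.p6).

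Whole fragments were recovered from the FPKM values within 0.01 fragments, with the longest annotated transcript for 15336 genes (70.0% of 21898 above 0) and a length solved from the values for 6562. Recovery of counts is an inference from the values, and PCR copies are included.

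The main test was limma (version 3.58.1, R 4.3.3) with an expression trend, two-sided, on log2(FPKM + 1) for genes that reached 1 FPKM in 3 or more of the 6 libraries. Fold changes on this scale understate those of low genes. Benjamini-Hochberg adjustment covered all genes in the test. An exact permutation test of 3 against 3 libraries cannot go below p = 0.1, which all 7 members without overlap reached. The design text calls the replicates independent and biological but does not tie them to animals, so p-values measure the spread between these samples, part of which may be technical. The named genes were all members, Rcor1, list genes past the threshold and some further list genes. Also named were the tested genes of the SLAM cluster and the 3 genes of closest pattern to each changed member. Members and lists were chosen with earlier results of these data known. The symbol Sh2d1b1 was not found among the identifiers and is not analysed here. The limma and voom steps were run on simulated fragments with planted changes larger than those of the members. That run does not show how well changes as small as those of the members are found. Alternatives were pseudocounts of 0.1 and 5, no filter and a filter at 5 FPKM, median-ratio scaling, quantile normalization, the replicate number as a block, voom on recovered fragments together with median-ratio scaling, no variance trend, and leaving out each library in turn on the same genes.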

Additional observations from a re-analysis of the deposited data

How the results depend on the processing

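The log2 fold changes of Slamf6, Cd84, Sh2d1a, Slamf1, Ly9, Slamf7 and Cd2 kept their direction in all 15 alternatives, while the values of Cd48 and Sh2d2a, near 0, changed sign when single libraries were left out. Without a filter on low values 566 genes rose, 1 member rose and 0 fell, and 5 context genes rose; log2 fold changes were 0.273 for Cd84 (adjusted p = 0.0563), -0.268 for Cd2 (0.0554) and 0.269 for Sh2d1a (0.065). With median-ratio scaling 528 genes rose and 688 fell, 1 member rose, Cd84 was at 0.180 and Sh2d1a at 0.178. With quantile normalization 473 genes rose, 1 member rose, Cd84 was at 0.233 and Sh2d1a at 0.184 (adjusted p = 0.114). Voom on recovered fragments, which also used median-ratio scaling, gave 730 genes that fell and 1 member that rose, with Cd84 at 0.194 (adjusted p = 0.0798) and Sh2d1a at 0.196. Without a variance trend Sh2d1a was at 0.269 (adjusted p = 0.052).

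The labels do not say whether the replicate numbers pair the samples. Deviations of same-numbered libraries correlated at 0.211, -0.135 and -0.162 for numbers 1, 2 and 3. Those of differently numbered libraries correlated at -0.188 to 0.336. With 3 libraries per group these values cannot settle whether the samples were paired. With the replicate block, 269 genes rose and 135 fell, 1 member rose (Slamf6, adjusted p = 0.0453) and 0 fell, and 5 context genes rose. Under the block Cd84 was at 0.273 (adjusted p = 0.11), Cd2 at -0.268 (0.0838) and Sh2d1a at 0.269 (0.107), and the calls of Cd3g (0.142) and Ikzf2 (0.115) were lost too.

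Leaving out 1 library at a time gave 208 to 1441 genes that rose and 128 to 501 that fell, 0 to 3 members that rose and 0 to 1 that fell, and 3 to 14 context genes that rose and 8 that fell. The log2 fold changes then ran from 0.332 to 0.406 for Slamf6, 0.225 to 0.318 for Cd84, 0.152 to 0.247 for Slamf1, 0.0848 to 0.145 for Ly9, 0.194 to 0.336 for Slamf7, -0.301 to -0.249 for Cd2, -0.0553 to 0.0404 for Cd48, 0.218 to 0.295 for Sh2d1a and -0.0455 to 0.0243 for Sh2d2a. The cause of these differences was not tested. Slamf7, with 130 to 206 fragments per library, is the member whose precision depth limits most.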
